A study of Mus musculus with 2 samples.

Results

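Wnt-low venous endothelium (Wnt-low VE) is the class of venous endothelial cells with low expression of Wnt target genes among cells sorted from the dorsal aorta of mouse embryos. Its members are the cells that carry this class in the deposited annotation. They number 868 in the wild-type (WT) library and 676 in the Sp3-null (SP3KO) library, together 1544 of 8405 cells. The cells came from E10.5 embryos of matings between Sp3 heterozygotes, and the strain was C57Bl6/J x B6129SF1/J. The null allele was Sp3tm1Sus, which embryos of the SP3KO group carried on both chromosomes and which acts in every cell. Embryos of 1 genotype were pooled, and cells that were Ter119-negative, CD41-low or negative, and positive for CD31, CD144 and ESAM were captured with the Chromium 3' v3 kit, which counts the 3' ends of transcripts by unique molecular identifiers (UMIs). With a single capture for each genotype, the effects of genotype, pool and library cannot be told apart, no test was made, and no difference between the libraries has a replicate check. How many embryos made up a pool is not given in the labels or methods.

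Veins take their identity from the nuclear receptor Nr2f2, which holds back the Notch pathway that arteries use. Venous cells carry the receptor Ephb4, arterial cells its ligand Efnb2. Canonical Wnt signalling through beta-catenin, LEF1 and TCF7 gives endothelium of the brain its barrier genes, and its targets include feedback inhibitors such as Axin2 and Nkd1. SP3 is a zinc finger transcription factor that binds GC boxes, short GC-rich stretches common in promoters.

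A level is given in CPM, the UMIs of a gene over all UMIs of a class in a library, scaled to a total of 1000000. A log2 ratio compares 2 such levels. Intervals at 95% stand in parentheses and cover counting error only. Wnt-low VE summed to 15029997 UMIs in the WT and 11783821 in the SP3KO library. The median cell held 14294 and 14475 UMIs, 3461.5 and 3506 detected genes, and mitochondrial shares of 4.97% and 4.52%. Depth and quality thus lay close together. The libraries shared 5 cell barcodes, of which 0 were Wnt-low VE in both.

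Wnt-low VE made up a smaller share of the SP3KO library. It was 19.5% of 4451 WT cells (18.3% to 20.7%) and 17.1% of 3954 SP3KO cells (15.9% to 18.3%), a difference of -2.40 percentage points (-4.07 to -0.732). Among VE the share was 63.1% of 1376 and 54.4% of 1242 cells, a difference of -8.65 points (-12.5 to -4.83). Among both arterial (AE) and both VE classes it was 37.5% and 31.2%, and among VE and the class called other endothelium 28.9% and 25.5%. The share was lower under each of these denominators. Because the cells of a library are captured together, a lower share of 1 class goes with a higher share of others. Wnt-high VE numbered 508 and 566 cells and Wnt-high AE 467 and 574, both higher shares in the SP3KO library. The share of Wnt-low AE was lower as well, with 472 of 4451 and 348 of 3954 cells. How the sort and the pooled embryos bear on the share was not tested.

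The label was set beside the levels of the venous genes Nr2f2, Aplnr, Ephb4 and Emcn. Nr2f2 stood at 111 CPM (106 to 116) in WT and 118 CPM (112 to 124) in SP3KO Wnt-low VE. In Wnt-low AE it stood at 53.0 and 56.7 CPM, in conflux AE at 8.45 and 15.5 CPM, and in other endothelium at 178 and 164 CPM. Nr2f2 was therefore about as high as in Wnt-high VE (102 CPM in both libraries), above all arterial classes, and below other endothelium. Aplnr, the apelin receptor of venous and capillary endothelium, stood at 188 and 174 CPM, against 116 and 96.3 CPM in Wnt-low AE and 187 and 172 CPM in other endothelium. Ephb4 did not mark the class, with 38.8 and 37.0 CPM against 41.8 and 41.9 CPM in Wnt-low AE. Emcn, a sialomucin of venous and capillary surfaces, was at 712 and 763 CPM, close to the 676 and 736 CPM of Wnt-low AE. Nr2f2 and Aplnr were thus higher than in Wnt-low AE, while Ephb4 and Emcn were at like levels. From the venous list, the semaphorin and VEGF-C co-receptor Nrp2 was higher too (164 and 178 CPM against 80.9 and 88.2 CPM in Wnt-low AE). The authors told AE from VE by arterial genes such as Efnb2, Nrp1 and Dll4 against venous genes such as Ephb4, Nrp2 and Nr2f2. None of these values is therefore independent of the class, and they do not test its label.

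**Figure D1:**
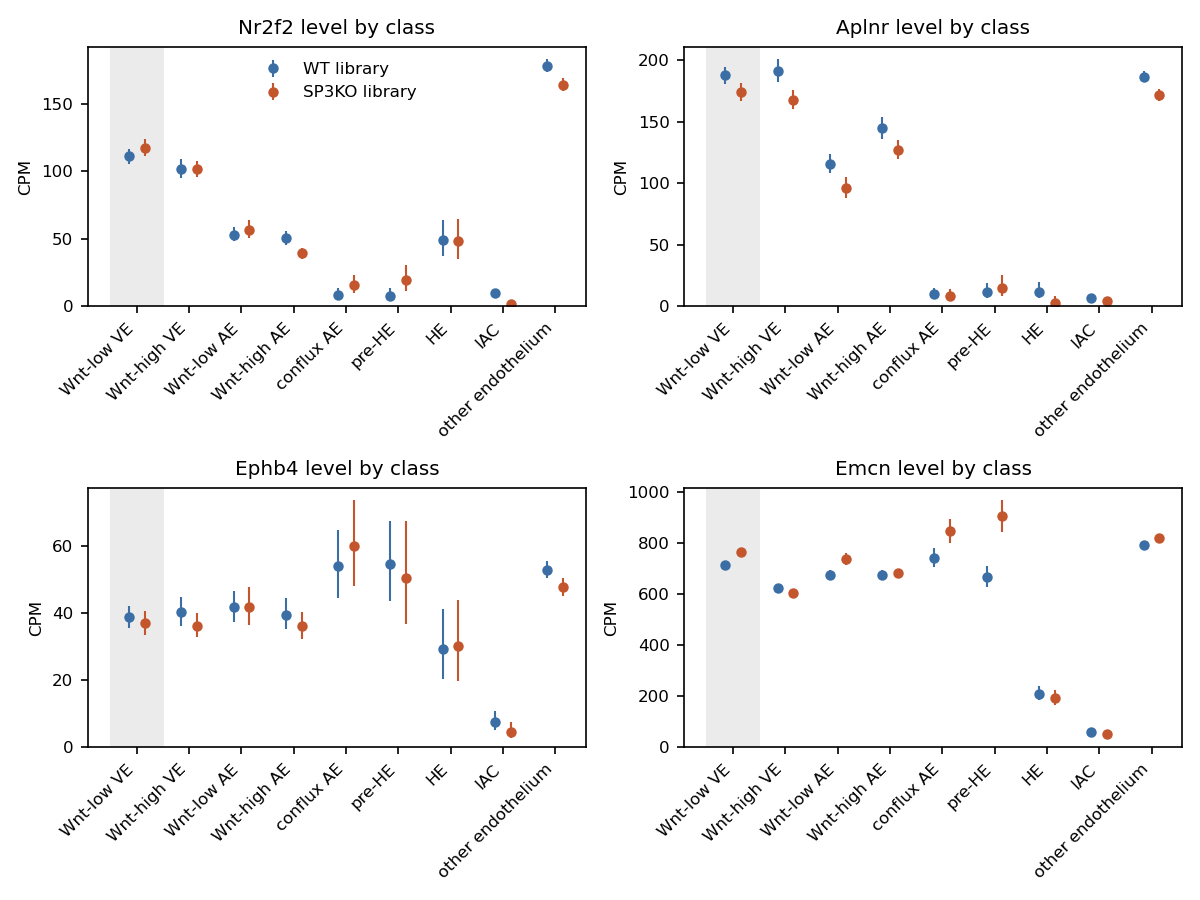
Levels of the 4 venous genes in CPM (vertical axes, from 0) in the 9 classes, for the WT and the SP3KO library, with counting intervals at 95%. Nr2f2 and Aplnr are higher in Wnt-low VE (shaded) than in the AE classes, while Ephb4 and Emcn are at like levels in Wnt-low VE and Wnt-low AE.

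Single cells were compared after thinning each cell to 5000 UMIs, which 726 WT and 588 SP3KO cells of the class reached. Nr2f2 was then detected in 35.1% and 36.7% of cells, and without thinning in 61.4% and 62.1%. Intra-aortic cluster cells (IAC), which are emerging blood cells, gave a background of 3.97% and 0.971% at the same depth. Aplnr was detected in 59.0% and 56.6% of thinned Wnt-low VE cells, against 1.59% and 0.971% in IAC. Without thinning it was found in 84.8% and 82.0%, where the IAC, which are deeper with medians of 31041 and 30376 UMIs, gave 11.7% and 6.54%. At 5000 UMIs, 43.7% and 44.7% of cells held 2 of the 4 markers, 4.41% and 5.27% held all 4, and 1.93% and 1.70% held 0. Efnb2, Nrp1 and Dll4 together outnumbered Ephb4, Nrp2 and Nr2f2 in 33.9% of WT and 30.8% of SP3KO cells of the class. The share was 75.4% and 71.1% in Wnt-low AE and 17.0% and 15.7% in other endothelium. Wnt-high VE was like Wnt-low VE, with 35.8% and 29.6%, so that both VE classes lay between Wnt-low AE and other endothelium. These genes were used to tell AE from VE, so that the gap to Wnt-low AE is not independent of the class. At this depth a cell holds few UMIs of these genes, a median of 3 over the whole arterial list and 8 over the venous list in either library.

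Other cell types were looked for with marker lists. Ptprc, which marks blood cells, was detected in 0 of 726 and 0 of 588 thinned cells, which allows up to 0.413% and 0.510% of cells with a UMI and sets no limit on cells that express the gene. At the same depth it was detected in 21.4% and 33.0% of IAC. Runx1, the factor of hemogenic endothelium, was found in 0.826% and 0.510% of cells, against 69.8% and 70.9% of IAC. At least 2 genes of the hematopoietic list were detected in 6.57% and 5.62% of all cells of the class, and at least 2 of the erythroid list in 4.95% and 5.77%. For the neural list the shares were 24.2% and 20.9%. Nearly all UMIs of that list were of Nes and Stmn2, which encode a filament protein of neural progenitors and a tubulin regulator of neurons. Nes was detected in 615 of 868 WT and 473 of 676 SP3KO cells, and Stmn2 in 265 and 160. With Nes in most cells of the class, these shares do not count neural cells. Nes stood at 131 and 127 CPM. Stmn2 stood at 65.8 CPM in the WT and 46.8 CPM in the SP3KO library, a log2 ratio of -0.49 (-0.65 to -0.34), and its part in other ratios was not tested. The neural sum was 198 and 176 CPM (-0.17, -0.25 to -0.09). Summed over their lists, hematopoietic markers stood at 38.0 and 39.3 CPM, erythroid at 36.9 and 33.1 CPM, macrophage at 6.05 and 4.58 CPM, mesenchymal at 3.59 and 3.82 CPM, smooth muscle at 9.71 and 8.23 CPM, epithelial at 1.66 and 1.27 CPM, hepatocyte at 5.12 and 3.56 CPM, and germ cell at 3.19 and 2.72 CPM. The intervals of the log2 ratios of these other sums included 0. The endocardial list stood at 342 and 332 CPM, of which Hapln1 gave 310 and 300 CPM.

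The next comparison set Wnt-low VE against other classes within each library. A gene was counted where its level differed at least 2-fold (1 on the log2 scale) in the same direction in both libraries. The classes were assigned from the expression of the same cells, so that these counts describe the classes and test nothing. Other endothelium was the nearest class, with 0.564% of genes past the fold, followed by Wnt-low AE with 1.01% and Wnt-high VE with 1.41%. Wnt-high AE differed in 4.50%, HE in 6.49%, pre-HE in 10.3%, conflux AE in 10.6% and IAC in 14.6% of genes. By this measure the Wnt-low classes of veins and arteries were nearer to each other than the Wnt-low and Wnt-high veins. The gene minimum was met by different numbers of genes in each pair, from 6024 to 8694, which limits the order where shares lie close.

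Against Wnt-high VE, 32 of 7494 genes were higher (0.427%) and 74 lower (0.987%). The forkhead gene Foxq1, part of the barrier list, differed most. It stood at 1.60 CPM in WT Wnt-low VE against 42.4 CPM in Wnt-high VE, and at 2.80 against 56.5 CPM in the SP3KO library. The log2 ratios were -4.73 and -4.33. Nkd1, a Wnt feedback inhibitor, stood at 4.66 against 43.8 CPM and at 5.18 against 61.5 CPM. Of the 7 Wnt target genes with enough UMIs, 4 were lower past the fold (Nkd1, the receptor Tnfrsf19, and the transcription factors Lef1 and Tcf7) and 0 were higher. Lef1 was still at 52.5 and 52.3 CPM in Wnt-low VE, against 134 and 123 CPM in Wnt-high VE. Axin2, which missed the minimum in the WT library, stood at 2.26 against 14.5 CPM and at 2.29 against 17.6 CPM. Ccnd1, the G1 cyclin, went the other way, with 373 against 294 CPM and 386 against 274 CPM. The growth factor-induced gene Myc was higher as well, with log2 ratios of 0.81 and 1.04. The measured Wnt targets thus did not all lie on 1 side. The Notch ligand Jag1 was also lower in Wnt-low VE, at 7.85 against 55.1 CPM and 9.08 against 53.2 CPM. Of the barrier list, 3 of 8 measured genes were lower past the fold, among them the amino acid transporter Slc7a5 (chosen after its values were seen), at 8.05 against 50.5 CPM and 9.59 against 48.9 CPM. The carbonic anhydrase gene Car2, the forkhead gene Foxl2, Tdrp, Gxylt2, Tpbg and Tnfrsf19 were the others of the 8 lowest by rank, with log2 ratios between -4.05 and -2.78.

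As a sum, the capillary list stood close in Wnt-low VE and Wnt-high VE, at 2663 against 2693 CPM in the WT and 2675 against 2581 CPM in the SP3KO library. Of its 12 measured genes 2 were higher past the fold, 6 lay above and 5 below 0 in both libraries, and the medians were 0.15 and 0.07. Of all 7494 genes 25.8% lay above and 45.8% below 0 in both libraries, with medians of -0.05 and -0.03. Among the genes named by rank on the higher side, Kcne3, a potassium channel subunit of the capillary list, stood at 107 against 16.7 CPM in the WT and at 127 against 21.6 CPM in the SP3KO library. Gpihbp1, which carries lipoprotein lipase to the capillary lumen, stood at 15.5 against 3.57 CPM and 13.7 against 4.04 CPM. The basement membrane collagen Col15a1 stood at 105 against 28.2 CPM and 85.7 against 21.9 CPM. The prostaglandin-degrading enzyme Hpgd was at 25.2 against 6.57 CPM and 30.2 against 3.41 CPM. Others of the 8 named by rank were 8430408G22Rik, the death-associated kinase Dapk2, Cdc42ep2 and Prl3b1, with log2 ratios between 1.75 and 3.30. Kcne3, Gpihbp1, Col15a1, Hpgd, 8430408G22Rik and Cdc42ep2 were higher still in Wnt-low AE, with 84.2 CPM for 8430408G22Rik against 29.5 CPM in WT Wnt-low VE, and 176 against 107 CPM for Kcne3. Over the arterial list, 2 of 13 measured genes passed the fold against Wnt-high VE, both lower (Jag1 and Jag2).

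Against Wnt-low AE, 16 of 6852 genes were higher (0.234%) and 53 lower (0.773%). Of all these genes 31.2% lay above 0 and 48.3% below 0 in both libraries, with medians of -0.06 and -0.06. The connexin Gja4 led the lower genes, with 23.8 against 236 CPM in the WT and 16.2 against 209 CPM in the SP3KO library (log2 ratios -3.31 and -3.69). Esm1, a proteoglycan of tip cells, the netrin receptor Unc5b, the Notch target Hey1, the natriuretic peptide receptor Npr3, Mecom, Igfbp3 and the Notch ligand Dll4 followed, with log2 ratios between -3.19 and -1.78. All 13 measured genes of the arterial list were lower in both libraries, with medians of -1.16 and -1.11, and 7 passed the fold. The list overlaps the genes that split AE from VE. On the higher side Flrt2, an adhesion protein with leucine-rich repeats, stood at 43.8 against 10.4 CPM and 39.0 against 9.87 CPM, and Phgdh, the first enzyme of serine synthesis, at 19.8 against 5.54 CPM and 15.2 against 4.36 CPM. Prl3b1, Nexmif, the growth factor Pdgfa, the protocadherin Pcdh7 and Cdca7l followed, with log2 ratios between 1.24 and 1.92. Of 11 measured venous genes, 6 lay above and 4 below 0 in both libraries, with medians of 0.07 and 0.07. Past the fold 3 were higher, among them Nr2f2 and Nrp2, and 0 were lower. Basement membrane genes were lower in 12 of 12, with medians of -0.78 and -0.69, and S phase genes higher in 20 of 20, with medians of 0.27 and 0.42. None of the S phase genes passed the 2-fold.

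Against other endothelium, 20 of 8694 genes were higher (0.23%) and 29 lower (0.334%). Of all these genes 25.8% lay above 0 and 45.9% below 0 in both libraries, with medians of -0.04 and -0.04. Several genes on the higher side were higher still in Wnt-low AE. Hey1 stood at 16.2 against 3.35 CPM and 13.0 against 3.44 CPM, Dll4 at 18.8 against 5.11 CPM and 17.9 against 5.60 CPM, and Gja4 at 23.8 against 5.61 CPM and 16.2 against 5.85 CPM. Kcne3, 8430408G22Rik, Igfbp3, the addressin Madcam1 and the transcriptional repressor Prdm1 completed the 8 named by rank. Of 14 arterial genes 12 were higher in both libraries, and 4 passed the fold. Of 12 venous genes 10 were lower in both libraries, with medians of -0.45 and -0.30. Bmp4, a ligand of the BMP pathway, was among those past the fold, at 9.38 against 32.4 CPM in the WT library. Prox1, the factor of lymphatic identity, was lower as well, at 4.06 against 20.1 CPM and 4.75 against 17.9 CPM, as were the adhesion receptor Adgrg6, the retinoic acid binding proteins Crabp1 and Crabp2 and the proteases Tll1 and Prss23, with Ctnnal1 the last of the 8 lowest. HOX genes were lower in both libraries in 10 of 14, with medians of -0.30 and -0.31. Wnt-low VE thus held lower levels than other endothelium of most measured venous and lymphatic genes, and higher levels of most arterial and capillary genes.

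**Figure D2:**
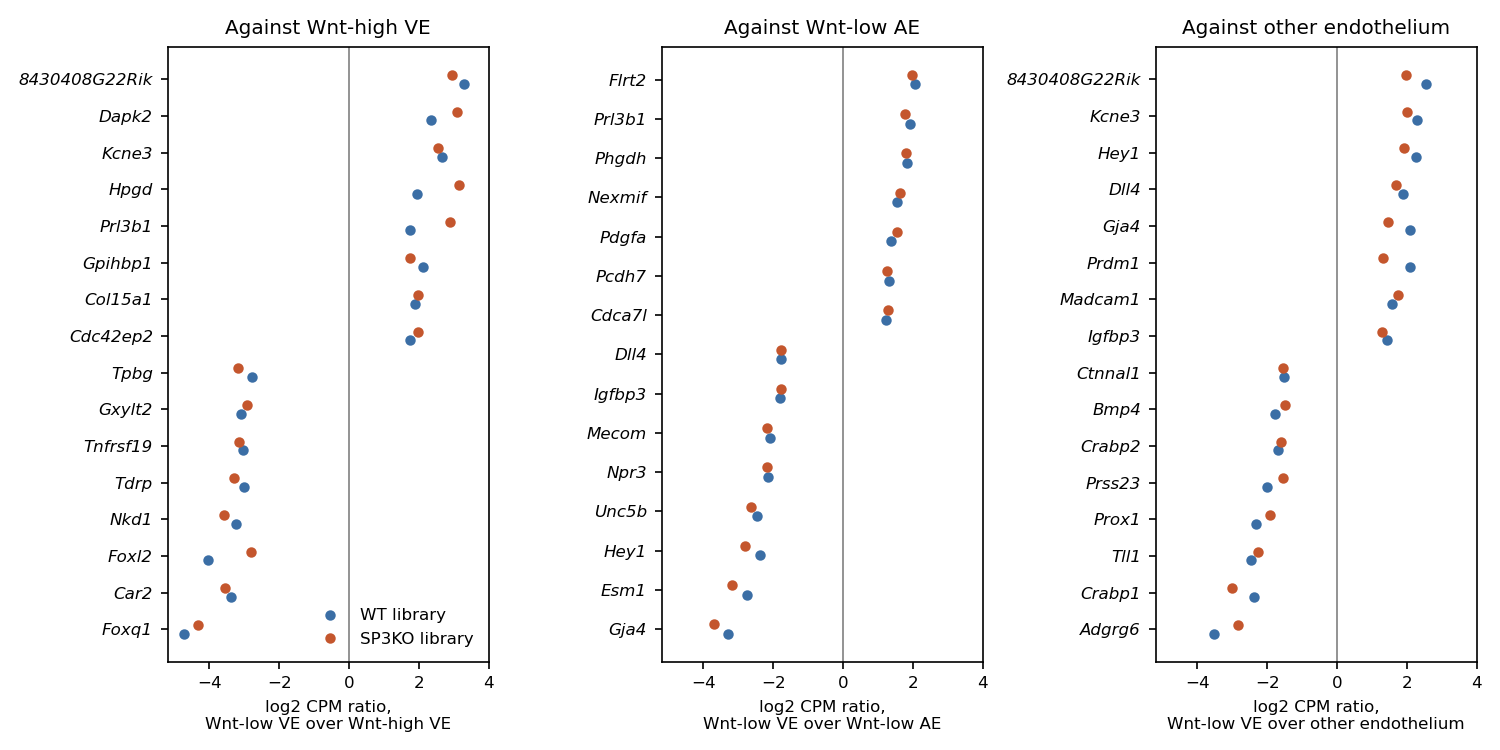
Up to 8 genes highest and 8 lowest in Wnt-low VE against Wnt-high VE, Wnt-low AE and other endothelium, by the library with the smaller difference. The horizontal axes give the log2 ratio of CPM, Wnt-low VE over the other class, with 1 point per library, and every gene shown has its points on 1 side of 0.

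Between the libraries, the question was which transcripts of Wnt-low VE differ where SP3 is missing. Sp3 itself (ENSMUSG00000027109, GRCm38 chr2:72936430-72980446) stood at 43.4 CPM (40.1 to 46.8) in the WT and 33.8 CPM (30.5 to 37.3) in the SP3KO library, a log2 ratio of -0.36 (-0.54 to -0.18). Transcripts were counted at their 3' ends and the labels and methods do not give the deleted part of the gene. This level therefore does not check the genotype labels. Of 7879 genes that reached 200 UMIs when both libraries were added, 36 were higher in the SP3KO library by at least 0.5 on the log2 scale (0.457%) and 112 were lower by as much (1.42%). All of these had intervals apart from 0, which the UMI minimum and the fold fix in advance, so that this adds no support. With each cell thinned to 5000 UMIs, which leaves fewer UMIs a gene, 211 were higher and 372 lower. The median log2 ratio was -0.01, and the central 95% of genes lay between -0.41 and 0.31. Wnt-high VE had 0.627% of genes higher and 1.36% lower past the same fold, Wnt-low AE 0.547% and 1.35%, and other endothelium 0.719% and 2.09%. These classes come from the same libraries and are not replicates of each other.

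The venous identity genes lay close together in the libraries. The log2 ratio was 0.08 for Nr2f2 (-0.02 to 0.19), -0.11 for Aplnr (-0.19 to -0.02), -0.07 for Ephb4 (-0.25 to 0.11) and 0.10 for Emcn (0.06 to 0.14). Over the 12 measured genes of the venous list the median was 0.05, with 7 above and 5 below 0, against a median of -0.01 and 46.1% above 0 over the 10236 genes with at least 50 UMIs. Of those 10236 genes, 202 were higher (1.97%) and 419 lower (4.09%) past the fold. In the venous list 1 gene passed it. This was Vwf, the clotting factor carrier of endothelial granules, at 5.85 CPM (4.70 to 7.21) in the WT and 12.4 CPM (10.5 to 14.6) in the SP3KO library, a log2 ratio of 1.08 (0.69 to 1.48). In pre-HE, where it was most abundant, Vwf stood at 706 and 866 CPM. Among 14 arterial genes the median was -0.02, with 7 above and 7 below 0, and Gja4 was lower, at 23.8 and 16.2 CPM (log2 ratio -0.55, -0.81 to -0.29). Among 9 Wnt target genes the median was 0.02 and 1 passed the fold, the Wnt receptor ligase Znrf3 at 5.66 and 3.99 CPM, whose interval included 0 (-1.05 to 0.03). Axin2 stood at 2.26 and 2.29 CPM and Lef1 at 52.5 and 52.3 CPM.

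Slc2a3, the glucose transporter GLUT3, had the highest ratio of all genes ranked. It stood at 5.06 CPM (3.98 to 6.33) in the WT and 19.3 CPM (16.8 to 21.9) in the SP3KO library, from 76 and 227 UMIs, a log2 ratio of 1.93 (1.55 to 2.32). It was detected in 63 of 868 and 117 of 676 cells, which is 7.26% and 17.3%, and at 5000 UMIs in 1.93% and 9.35% of cells. IAC express the gene and give no background for it, with 19.0% and 11.7% at the same depth. Its UMIs were spread, with 9 and 22 of them in the 3 cells of each library that held most. The log2 ratio was 1.78 in Wnt-high VE, 1.85 in Wnt-low AE, 1.91 in Wnt-high AE and 1.75 in other endothelium, and 0.01 in IAC. Lgals1, the galectin that binds surface glycans, stood at 119 CPM (113 to 124) and 193 CPM (185 to 201), a log2 ratio of 0.70 (0.61 to 0.79). Nts, which encodes the peptide neurotensin, had a log2 ratio of 1.12, but 68 of its 158 SP3KO UMIs and 26 of its 93 WT UMIs lay in 3 cells of each library. Without those cells the ratio was 0.78, and with equal weight for each cell it was 0.66. The RNA-binding protein gene Rbm45 (0.84, 0.53 to 1.15) lies 3.42 Mb from Sp3 on chromosome 2, near the targeted locus. Of the genes past the fold, 1 of 35 higher and 2 of 108 lower with known coordinates lay within 20 Mb of Sp3, against 1.20% of all genes ranked.

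The other genes among the 12 highest were the RNA-binding protein gene Rbms3, Efcab2, Gm10036, the receptor phosphatase Ptprf, the macroH2A histone gene H2afy2, Uty and the centriole gene Spice1, with log2 ratios from 0.66 to 0.81. Gm10036 stood at 47.1 and 79.3 CPM and H2afy2 at 32.9 and 53.5 CPM. Counts of Gm10036, a predicted gene, may hold reads of near-identical copies and are uncertain. Uty lies on the Y chromosome. The 4 measured Y-linked genes were all higher in the SP3KO library, with a median log2 ratio of 0.37, while Xist, which silences an X chromosome in females, had a log2 ratio of -0.13 (-0.19 to -0.07). The summed Y-linked level was 54.2 and 70.5 CPM. The labels do not give the sexes of the pooled embryos, and their part in other ratios was not tested.

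On the lower side, Tpm2, the beta-tropomyosin of actin filaments, stood at 12.2 CPM (10.5 to 14.1) in the WT and 4.75 CPM (3.59 to 6.17) in the SP3KO library, a log2 ratio of -1.37 (-1.82 to -0.93). It was -0.50 in Wnt-high VE, -0.63 in Wnt-low AE and -1.18 in other endothelium. Plpp2, a lipid phosphate phosphatase, stood at 37.9 CPM (34.9 to 41.2) and 18.8 CPM (16.4 to 21.5), from 570 and 222 UMIs, a log2 ratio of -1.01 (-1.24 to -0.78). Across the other classes its ratio lay between -0.82 in other endothelium and -1.70 in pre-HE, with each interval below 0. Plpp2 was thus lower in all 9 classes of the SP3KO library. Eif3j2 (-1.10) has a near-identical copy, Eif3j1, so that its counts are uncertain. For the ubiquitin ligase gene Ccnb1ip1 (-1.08), 29 of 146 WT UMIs lay in 3 cells. The others of the 12 lowest were the peptidase-like Cpxm1, Tmem158, the adaptor Lat, 1110008P14Rik, the heparan sulfate proteoglycan Sdc1, the adhesion protein Ninj1, the fucose mutarotase Fuom and the lactate dehydrogenase subunit Ldhb, with log2 ratios from -0.96 to -0.86. Sdc1 stood at 10.1 and 5.35 CPM and Ldhb at 13.0 and 7.13 CPM.

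**Figure D3:**
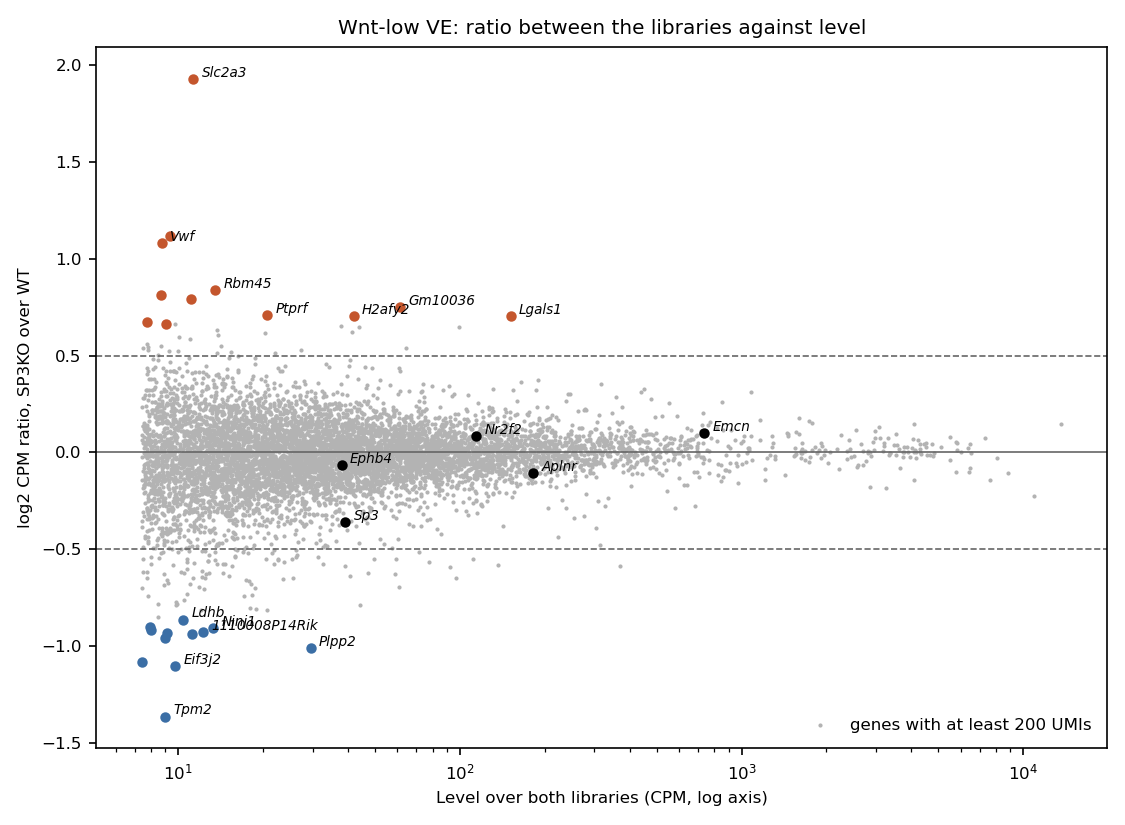
Log2 ratio of CPM, SP3KO over WT (vertical axis), against the level over both libraries in CPM (horizontal log axis) for the 7879 genes of Wnt-low VE with at least 200 UMIs. Orange and blue points are the 12 highest and 12 lowest ratios, black points are Sp3 and the venous markers, and dashed lines stand at -0.5 and 0.5. Slc2a3 stands apart at 1.93, and the markers lie within the spread of genes at their level.

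**Figure D4:**
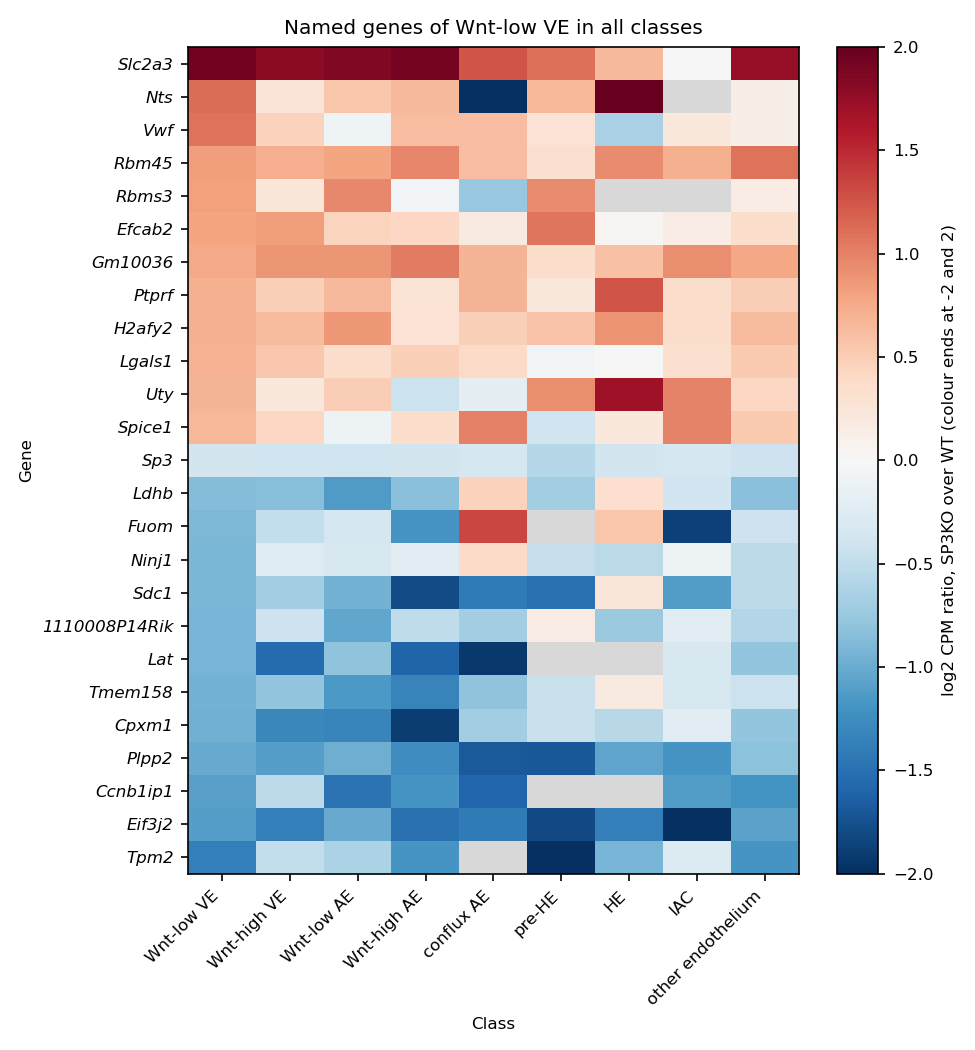
Log2 ratio of CPM, SP3KO over WT (colour), of Sp3 and the 12 highest and 12 lowest genes of Wnt-low VE (rows) in the 9 classes (columns), grey where fewer than 10 UMIs were counted. Slc2a3 is high from the VE and AE classes to other endothelium and at 0.01 in IAC, and Plpp2 is low in all columns.

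Because SP3 binds GC boxes, promoters of genes at both ends of the ranking are shown, with that of the marker Emcn for comparison. These genes were picked by hand and not by a rule, so that their windows are examples only. The bases before the annotated gene are given 5' to 3' on the strand of the gene, from RefSeq promoter windows of GRCm38.p6. Capitals mark the GC box core GGGCGG or, for a box on the other strand, CCGCCC.
Tpm2, chr4:43523584-43523804, minus strand, log2 ratio -1.37: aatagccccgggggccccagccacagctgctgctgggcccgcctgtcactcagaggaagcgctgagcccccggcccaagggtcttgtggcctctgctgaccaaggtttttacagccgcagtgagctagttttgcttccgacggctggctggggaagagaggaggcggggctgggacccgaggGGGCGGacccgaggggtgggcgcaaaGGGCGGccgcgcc
Plpp2, chr10:79533788-79534037, minus strand, log2 ratio -1.01: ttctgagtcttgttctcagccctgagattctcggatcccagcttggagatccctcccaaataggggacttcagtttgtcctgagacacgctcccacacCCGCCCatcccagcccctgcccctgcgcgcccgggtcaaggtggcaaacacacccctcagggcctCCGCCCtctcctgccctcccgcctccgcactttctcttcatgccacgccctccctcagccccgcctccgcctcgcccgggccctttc
Rbm45, chr2:76369734-76369958, plus strand, log2 ratio 0.84: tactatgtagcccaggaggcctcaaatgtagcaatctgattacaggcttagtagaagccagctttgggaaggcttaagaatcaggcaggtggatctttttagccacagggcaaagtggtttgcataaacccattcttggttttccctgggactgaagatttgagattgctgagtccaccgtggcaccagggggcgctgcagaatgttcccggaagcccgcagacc
Emcn, chr3:137340828-137341061, plus strand, log2 ratio 0.10: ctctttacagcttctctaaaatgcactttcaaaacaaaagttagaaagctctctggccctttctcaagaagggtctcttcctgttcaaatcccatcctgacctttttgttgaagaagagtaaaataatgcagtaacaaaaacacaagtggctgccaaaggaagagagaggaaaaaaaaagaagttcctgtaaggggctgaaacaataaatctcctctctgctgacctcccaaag
The windows of Tpm2 and Plpp2 hold 2 cores each, and those of Rbm45 and Emcn hold 0. Over 250 bases before the start, either core stood in 74 of 107 windows of the genes lower past the fold (69.2%, 59.5% to 77.7%), with windows for 90 of 112 genes. It stood in 61.4% of 8093 windows of all genes ranked a share inside that interval, and in 32.7% of all 32851 mouse windows. Median GC content was 60.8% in both the lower genes and all genes ranked. For the higher genes a core stood in 18 of 40 windows (45%, 29.3% to 61.5%). Windows were found for 27 of these 36 genes (75%), against 80.4% of the lower genes. With so few windows no conclusion was drawn for the higher genes. The intervals count windows as independent, though a gene can have more than 1. A match to these letters is not a binding site.

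As a group, hypoxia-induced genes had higher levels in SP3KO Wnt-low VE. Of 19 measured, 18 lay above 0 and the median was 0.33, against 46.1% above 0 and a median of -0.01 over all genes. This list and those below were chosen with earlier results of these data known, and Slc2a3, the gene ranked highest, is a member. The counts therefore describe the lists and test nothing. Of the 19, 12 had their interval above 0, and of all 10236 genes 867 had theirs above and 1079 below. Intervals are narrower for abundant genes, so that such counts, here and for the lists below, do not compare like with like. The summed list stood at 857 CPM in the WT and 1040 CPM in the SP3KO library (log2 ratio 0.28, 0.24 to 0.31). The most abundant members were the mitochondrial protein gene Higd1a, at 188 and 222 CPM (0.24), and Slc2a1, the glucose transporter GLUT1 of barrier endothelium, at 147 and 189 CPM (0.36, 0.28 to 0.45). Slc2a3 had the highest and the collagen hydroxylase P4ha2 the lowest ratio, at 4.06 and 2.72 CPM (-0.58, -1.24 to 0.06). Chosen after their values were seen, the peptide Adm (1.30, 0.86 to 1.75) and Ankrd37 (0.65, 0.47 to 0.83) also passed the fold. Thinned to 5000 UMIs, the mean cell held 4.20 UMIs of the list in the WT and 5.52 in the SP3KO library. In the other classes the summed ratio was 0.23 in Wnt-high VE, 0.26 in Wnt-low AE and 0.32 in other endothelium, and 0.02 in IAC.

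Glycolysis genes, several of which are also induced by low oxygen, had a median of 0.19 over 15 measured genes. Of these, 11 lay above and 4 below 0, against 46.1% above 0 over all 10236 genes. The interval lay above 0 for 11 and below for 1, against 867 and 1079 of all genes. With many abundant UMIs in this list, even small ratios have intervals apart from 0. The glycolytic enzyme Gapdh stood at 1405 and 1508 CPM (0.10) and lactate dehydrogenase A (Ldha) at 974 and 1210 CPM (0.31, 0.28 to 0.35), while Ldhb was lower, as above. Hexokinase 2 (Hk2) had the highest ratio, at 8.18 and 12.4 CPM (0.60, 0.24 to 0.96). Pfkm, the muscle-type phosphofructokinase, had the lowest, at 3.73 and 1.44 CPM (-1.37, -2.25 to -0.56). The summed list stood at 5752 and 6633 CPM, and its log2 ratio of 0.21 compared with 0.22 in Wnt-high VE, 0.07 in Wnt-low AE and 0.22 in other endothelium. Nuclear genes of oxidative phosphorylation had a median of 0.02 over 38 genes. Of 13 mitochondrially encoded transcripts 12 were below 0, with a median of -0.14. The share of cells with over 10% mitochondrial UMIs, 21.9% and 18.3%, moved with them.

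Interferon-stimulated genes were all at or above 0, with a median of 0.31 over 9 measured and 4 intervals above 0. Among all 10236 genes, which differ from the list in abundance, 867 intervals lay above and 1079 below 0. Ifitm3, which blocks virus entry, stood at 70.9 and 90.0 CPM (0.34, 0.22 to 0.47), and Ifitm2, the most abundant, at 365 and 371 CPM (0.02, -0.04 to 0.08). HOX genes, which set position along the body axis, were lower in 13 of 17, with a median of -0.20 and 4 intervals below 0. Hoxa5 had the lowest ratio, at 22.5 and 13.8 CPM (-0.70, -0.98 to -0.43), and Hoxb7 was the most abundant, at 34.9 and 31.9 CPM. The sum over the HOX list was 269 and 232 CPM (-0.21), against ratios of -0.30 in Wnt-high VE, -0.37 in Wnt-low AE and -0.36 in other endothelium.

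The medians of the signalling lists lay close to 0, with single members apart. Of 15 measured genes of BMP signalling, which acts through SMAD proteins, 12 lay above 0, with a median of 0.08. Its inhibitor Smad6 stood at 2.13 and 5.43 CPM, a log2 ratio of 1.35 (0.72 to 2.01) from 32 and 64 UMIs. Of 11 VEGF and TIE receptor genes the median was 0.03, and the VEGF decoy receptor Flt1 had the highest ratio, at 282 and 360 CPM (0.35, 0.29 to 0.41), while Kdr, the main VEGF receptor, stood at 437 and 455 CPM. Flt1 had a ratio of 0.35 in Wnt-low AE and of 0.04 in Wnt-high VE. Blood flow response genes had a median of 0.06 over 13, with Klf2, the flow-induced factor, lowest at 247 and 208 CPM (-0.25, -0.32 to -0.17) and the thrombin-binding Thbd highest at 10.8 and 14.8 CPM (0.45). In the barrier list, with a median of 0.21 over 11 measured, Igfbp7 was highest at 1.13 and 3.48 CPM, from 17 and 41 UMIs (1.62, 0.77 to 2.53), and Foxq1 (0.81, 0.01 to 1.63) passed the fold too. With equal weight for each cell the median of the list was -0.09.

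Medians of the remaining lists were 0.17 over 8 lymphatic and sinusoidal genes, where 7 lay above 0 and Sox18 stood at 129 and 144 CPM, and -0.02 over 14 capillary genes, with Kcne3 highest (0.25) and Rgcc, a regulator of cell cycle and angiogenesis, lowest at 18.0 and 11.5 CPM (-0.64, -0.95 to -0.34). They were 0.00 over 14 junction genes (Cdh5 at 545 and 563 CPM), -0.01 over 13 basement membrane genes, -0.04 over 20 S phase genes, -0.01 over 22 mitosis genes, -0.02 over 17 genes of cholesterol synthesis and -0.03 over 16 immediate early and heat shock genes. Col15a1, which sets Wnt-low VE apart from Wnt-high VE, was lower in the SP3KO library, at 105 and 85.7 CPM (-0.30, -0.41 to -0.18). Over 16 measured SP and KLF family genes the median was -0.06. Sp1, a GC box factor of the same family, stood at 30.8 and 30.4 CPM (-0.02, -0.22 to 0.18), chosen after its values were seen.

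**Figure D5:**
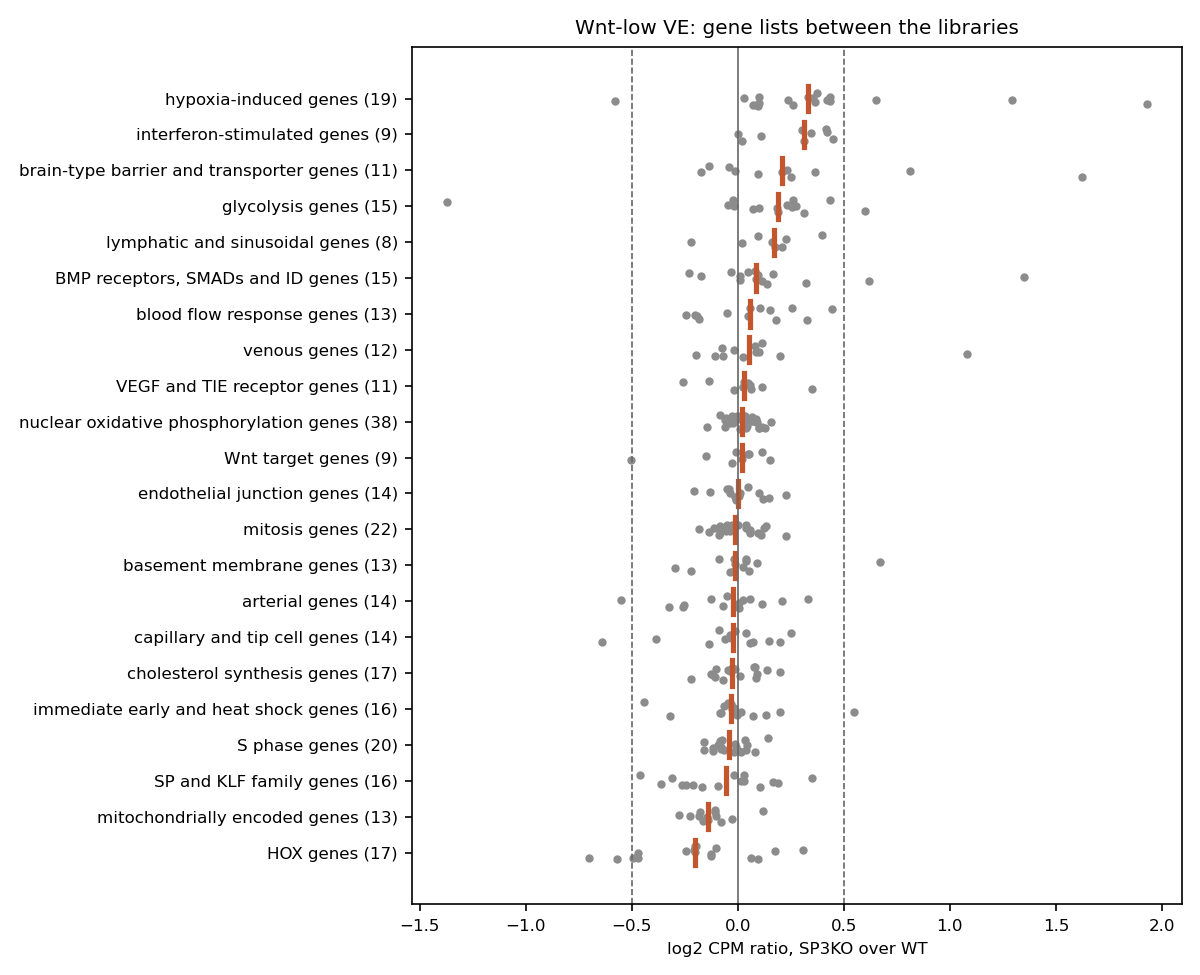
Log2 ratio of CPM, SP3KO over WT (horizontal axis), of each member with at least 50 UMIs in Wnt-low VE (grey points), by gene list, with the number measured in parentheses, the median as an orange bar and dashed lines at -0.5 and 0.5. Marker and sex-linked lists are not drawn, and among the lists drawn hypoxia-induced genes have the highest median (0.33) and HOX genes the lowest (-0.20).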

How the data were processed

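Single-cell RNA-seq was deposited for 1 WT and 1 SP3KO library. The authors aligned reads to mm10 (GRCm38) with Cell Ranger (version not given in the sources used here). They deposited raw UMI counts per gene and cell (27514 genes). They kept barcodes with at least 1000 UMIs and 1000 genes and removed contaminating cell types. The authors also deposited the mitochondrial fraction of each cell and its class, which was the majority among 3 nearest neighbours on a published reference, with ties broken at random. The sums over the matrix fell 0 to 197 UMIs below the deposited totals of cells. Other deposited columns of values per cell, 2 in number, were not used.

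Counts were summed per class and library and scaled to CPM. Intervals were exact at 95% (Poisson for CPM, conditional binomial for log2 ratios, Clopper-Pearson for shares and Newcombe for their differences) and cover counting error only. Ratios between libraries were ranked where both libraries together held at least 200 UMIs, and lists used members with at least 50 UMIs. A log2 ratio of at least 0.5 or at most -0.5 was counted. Between classes, genes needed 200 UMIs over both classes in each library. Named genes were drawn from Sp3, the 4 markers, the 12 highest and 12 lowest ratios, the 8 genes highest and lowest against each class, the Wnt target, venous and arterial lists, and for each list its 2 most abundant members and its highest and lowest ratio, though not every list member was printed. A gene that this rule names is not reported here. The 34 lists and the members were chosen with earlier results of these data known. Doublets were not called and remain in all values. Symbols carried by 2 identifiers, 12 in all, were told apart by identifier, and reads shared by near-identical genes could not be told apart. Coordinates and promoters came from RefSeq GRCm38.p6 tables. Alternatives used factors of edgeR 4.0.16 (TMM) and DESeq2 1.42.0 in R 4.3.3, with no test. Python 3.11.15, numpy 2.4.6, scipy 1.17.1, pandas 2.3.3 and matplotlib 3.10.9 were used. The ratios were tested on simulated data, where both libraries were drawn from the pooled gene shares, with set changes in chosen genes. No variation between cells, pools or libraries was added. The interval held the true value for 95.6% of 7679 unchanged genes, and 0.0651% of these passed the fold. Of 50 genes simulated at a log2 ratio of -1, 98% passed it, and of 50 at 0.5, 46%. These shares reflect counting error only and give no rate of false calls for the real libraries.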

Additional observations from a re-analysis of the deposited data

How the results depend on the processing

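Leaving out a replicate was not possible with 1 library per genotype. No paired analysis was possible because the groups hold 1 library each and no result comes from a test.

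The difference in the share of Wnt-low VE was -2.40 points of all cells, -8.65 points of VE and -6.26 points of both AE and both VE classes, and between -2.77 and -2.36 points under the filters on cells. Genes past the fold between the libraries, 36 higher and 112 lower, came to 67 and 178 with equal weight for each cell. With cells thinned to 5000 UMIs they came to 211 and 372, and without cells with markers of other cell types to 81 and 164. They came to 97 and 232 at a minimum of 100 UMIs, 12 and 34 at 500, and 8 and 15 at 1000. The counts were thus larger where fewer UMIs stood behind a gene. TMM factors (39 and 105) and DESeq2 size factors (38 and 105) gave like counts. Against Wnt-high VE, Wnt-low AE and other endothelium, the higher and lower genes came to 65 and 130, 41 and 112, and 39 and 83 at a minimum of 50 UMIs, and to 15 and 36, 6 and 26, and 10 and 12 at 500. Of the 12 highest and 12 lowest genes, all kept their sign, and 9 and 11 stayed past the fold under every alternative, the exceptions being Rbms3, Uty, Spice1 and Lat. The log2 ratio of Tagln, a smooth muscle marker, was -0.76 and became 1.10 without cells with markers of other cell types, a list that includes it. This filter left out 31.5% of WT and 28.1% of SP3KO cells of the class, most of them through the neural list. The median of the hypoxia-induced list ranged from 0.21 to 0.35, of glycolysis from 0.17 to 0.28, of interferon-stimulated genes from 0.26 to 0.39 and of HOX genes from -0.30 to -0.15, while that of the barrier list ranged from -0.09 to 0.22.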
